A study of Mus musculus with 8 samples.

Results

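The genes described here are those of the heat shock response and the unfolded protein response, the programmes that keep proteins folded in the cytosol and in the endoplasmic reticulum (ER). A list of 45 genes was used, 18 for the heat shock arm (cytosolic chaperones with the mitochondrial ones of the same families) and 27 for the ER arm. Each gene was read by 1 probe set, the one with the highest mean log2 value over the 8 arrays among those with exactly 1 gene symbol, and 38 of the 45 were measured that way, of 18782 genes on the array. The heat shock arm kept 13 members and the ER arm 25. The inducible HSP70 genes Hspa1a and Hspa1b, the small chaperone gene Cryab, and Ddit3 (CHOP) and Pdia4 of the ER arm shared their probe sets with other symbols, and Hsp90ab1 and Hsf1 were not matched. These 7 genes were not analysed here. The regulator of the heat shock response and its most inducible chaperones are therefore missing from what follows.

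The samples were distal convoluted tubules (DCT), the stretch of nephron that reabsorbs sodium chloride through the thiazide-sensitive cotransporter, of male mice (strain C57/Bl6, age 8 weeks). Both groups, TBC1D4-deficient (4 arrays) and TBC1D4 wild-type (4 arrays), carried the same PV-EGFP transgene, in which the parvalbumin promoter drives EGFP, and the glowing tubules were gathered with a large-particle sorter (COPAS). TBC1D4 restrains the delivery of glucose transporter vesicles to the cell surface, and the study asked which DCT genes compensate for its loss. Nothing in the labels states that the samples came from separate animals, so p-values speak only for the spread among these 8 samples, and with whole tubules fewer cells of a type and less RNA per cell cannot be told apart.

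In the cytosol, misfolded proteins draw HSP70 and HSP90 away from the transcription factor HSF1, which then switches on chaperone genes, so the transcripts of this arm report on recent protein stress and also on the heat and handling of a tissue. In the ER, the sensors IRE1 (Ern1), PERK (Eif2ak3) and ATF6 watch the folding load. IRE1 splices the Xbp1 message, ATF6 is cut to a transcription factor, and both raise ER chaperones and degradation factors, while PERK slows translation and raises ATF4 with its amino acid and death-related targets. The DCT makes large amounts of membrane transporter, which passes through the ER.

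Tbc1d4 itself read 103.2, 111, 95.64 and 122.8 in wild-type replicates 1 to 4 and 5.59, 6.594, 5.65 and 4.638 in TBC1D4-deficient replicates 1 to 4, so every array matched its label (log2 difference -4.27, 95% interval -4.52 to -4.02, limma adjusted p = 6.35e-08). Median intensities were 8.41 to 9.03 and arrays correlated at 0.993 to 0.997 on the log2 scale. The DCT markers were bright in every array (Slc12a3 from 2797 to 3021, Pvalb from 762.3 to 922.5), and the mean of 11 of them moved by no more than 0.04 (log2) from its average. Markers of other cells moved more. The mean of 19 proximal tubule markers was lowest at -1.01 (TBC1D4-deficient replicate 1) and highest at 0.70 and 0.68 (wild-type replicates 3 and 4), and all 19 lay below 0 in the genotype comparison. The mean of 13 endothelial markers ran from -0.39 to 0.22. All 13 lay below 0 as well, 8 of them with a limma unadjusted p below 0.05 (61.5%, against 2.9% of all probe sets). Past the adjusted threshold there were 0, and the part of these markers in the member values was not tested. A group of 24 immediate early genes, which respond within minutes to stimulation or tissue dissociation, averaged 0.76 and 0.26 in wild-type replicates 1 and 2, -0.45 and -0.36 in wild-type replicates 3 and 4, and -0.13 to 0.00039 in the TBC1D4-deficient arrays.

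Promoter stretches of the members that hold a known stress element are given first. RefSeq promoter windows (GRCm38.p6, 250 bases before to 50 after the gene start) matched 36 of the 45 members, 12 of the heat shock arm and 24 of the ER arm. The ER stress response element, searched as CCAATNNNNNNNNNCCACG on both strands, occurred in 8 of 24 ER members and 0 of 12 heat shock members, against 0.137% of 27025 genes with a window. The members were listed as known stress genes, so such counts describe the list and were not tested. Capitals mark its CCAAT and CCACG ends (CGTGG and ATTGG where it lies on the other strand). The window of Hspa5 (BiP, the master chaperone of the ER), chr2:34771840-34772089, is shown from 250 bases before the start up to the start, and the others are cut to the stretch around their match.
Hspa5: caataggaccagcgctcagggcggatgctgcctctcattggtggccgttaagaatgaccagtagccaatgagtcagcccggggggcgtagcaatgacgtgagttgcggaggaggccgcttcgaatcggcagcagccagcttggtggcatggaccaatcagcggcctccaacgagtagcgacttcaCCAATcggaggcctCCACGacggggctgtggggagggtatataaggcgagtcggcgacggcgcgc
Hsp90b1: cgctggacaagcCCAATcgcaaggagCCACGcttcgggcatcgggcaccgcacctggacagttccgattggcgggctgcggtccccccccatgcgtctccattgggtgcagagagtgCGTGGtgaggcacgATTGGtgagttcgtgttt
Calr: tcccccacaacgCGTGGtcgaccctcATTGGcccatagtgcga
Canx: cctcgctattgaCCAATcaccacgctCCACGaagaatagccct
Pdia6: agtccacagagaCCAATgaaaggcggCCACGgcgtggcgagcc
Dnajc3: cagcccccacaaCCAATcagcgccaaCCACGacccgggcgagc
Creld2: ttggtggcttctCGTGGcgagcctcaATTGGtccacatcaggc
Syvn1: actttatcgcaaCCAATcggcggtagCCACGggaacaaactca
These run 5′ to 3′ on the strand of each gene. Hsp90b1 (chr10:86705520-86705668, minus strand), the ER form of HSP90, held 2 matches. The others were Calr (chr8:84847063-84847105, minus) and Canx (chr11:50325788-50325830, minus), the lectin chaperones, Pdia6 (chr12:17266479-17266521, plus), a disulfide isomerase, Dnajc3 (chr14:118937815-118937857, plus), a co-chaperone of BiP, Creld2 (chr15:88819508-88819550, plus), an ER stress-induced secreted protein, and Syvn1 (chr19:6046520-6046562, plus), the ubiquitin ligase of ER-associated degradation.

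A shorter form of the element, ERSE-II, searched as ATTGGNCCACG on both strands, occurred in 2 of 24 ER members, Herpud1 and Dnajb11, and in 0.0444% of all genes with a window. In Dnajb11 it lay after the gene start. The heat shock element, searched as GAANNTTCNNGAA on both strands, occurred in 3 of 12 heat shock members and 0 of 24 ER members, against 0.662% of all genes with a window. In Hsph1 it lay after the start, and Hspd1 and Hspe1, the mitochondrial chaperonin and its lid, are neighbours that face away from each other and share 1 stretch with 2 overlapping matches. Capitals again mark the matched letters.
Herpud1: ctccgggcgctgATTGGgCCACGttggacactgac
Hspe1: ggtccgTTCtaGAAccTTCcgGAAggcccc
The first is chr8:94386365-94386399 (plus strand) and the second chr1:55088053-55088082 (plus strand, as Hspe1 reads it). A match describes these letters only, and the 8 genes with the ER stress response element had genotype differences of -0.11 to 0.10 (log2), with 0 past the threshold.

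No member of either arm passed the test for a difference between genotypes, and every difference was within the spread of the arrays. With limma and Benjamini-Hochberg adjustment over 23039 probe sets, 0 of 38 members passed an adjusted p of 0.05 (0.00434% of all probe sets did, which is Tbc1d4 alone), and the smallest adjusted p of a member was 0.9999. An unadjusted p below 0.05 was reached by 0 of 38, against 2.9% of all probe sets. The arrays of the genotypes overlapped for all 38 members, whereas 1.85% of all probe sets had groups that did not overlap. For 38 of 38 members the 95% interval excluded a 1.5-fold difference either way, as it did for 97.4% of all probe sets. In the heat shock arm 7 differences lay below 0 and 6 above, with a median of -0.0053. The heat shock count below 0 was 3 of 13 without wild-type replicate 1 and 11 of 13 without wild-type replicate 4. In the ER arm 19 lay below 0 and 6 above, with a median of -0.035. Over all probe sets 50.9% lay below 0 and the median was -0.0017. With each array centred on its own median, 4 of 13 heat shock members, 17 of 25 ER members and 40.7% of all probe sets lay below 0.

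**Figure D1:**
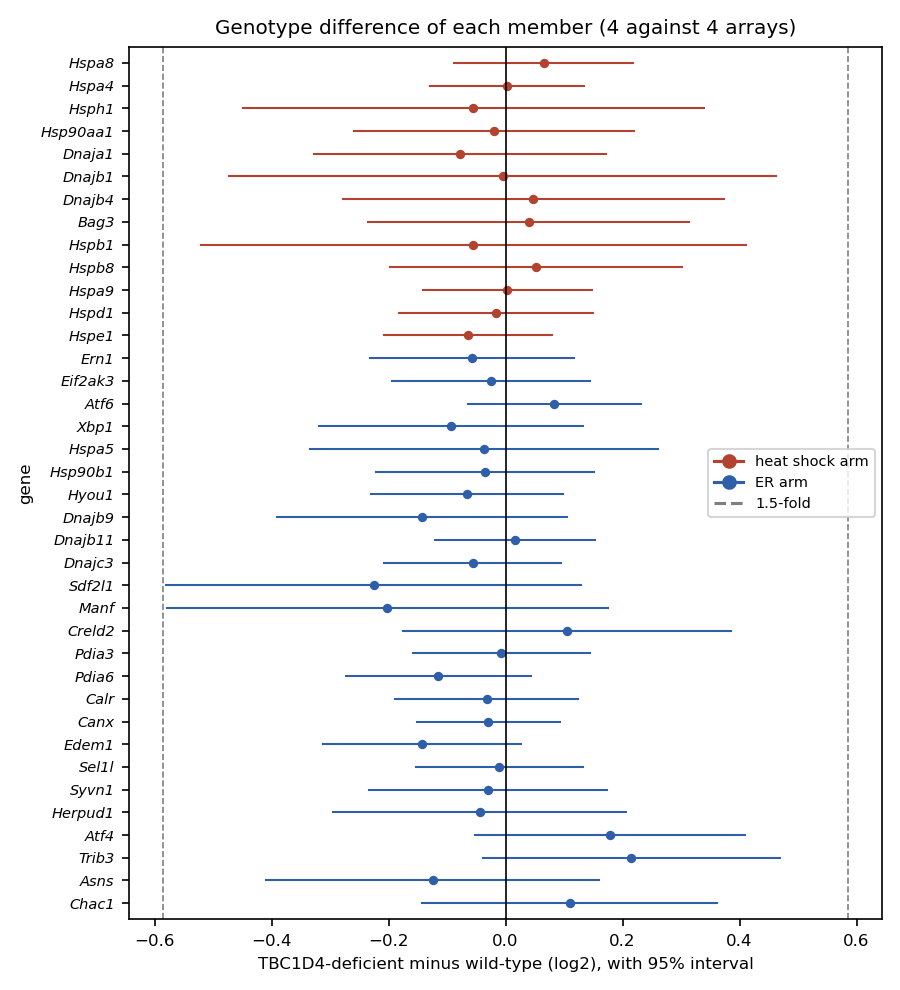
Difference between TBC1D4-deficient and wild-type tubules for each of the 38 measured members, on the log2 scale (x axis), with 95% intervals from the limma fit over 4 arrays per genotype. Points lie between -0.23 and 0.22, every interval crosses 0, and every interval stays inside the dashed lines at 1.5-fold, those of Sdf2l1 and Manf only just.

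Among the constitutive cytosolic chaperones, Hspa8 (HSC70, probe set 10584572), which folds new proteins and uncoats clathrin vesicles, read 1768, 1641, 1658 and 1887 in TBC1D4-deficient replicates 1 to 4 and 1674, 1681, 1745 and 1544 in wild-type replicates 1 to 4. The lowest array was wild-type replicate 4 and the highest TBC1D4-deficient replicate 4, and the groups overlapped. Its log2 difference was 0.065 (95% interval -0.087 to 0.22), and its 2 other probe sets gave 0.03 and 0.041. Hspa4, an HSP110 relative that recharges HSP70 with ATP, was steadier still, with a range of 0.13 (log2) over the 8 arrays and a difference of 0.0024 (-0.13 to 0.13).

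Hsp90aa1 (probe set 10378848), the stress-responsive cytosolic HSP90 that matures kinases and steroid receptors, read 742.2, 767.4, 726.1 and 741.7 in the TBC1D4-deficient and 887.2, 782.1, 784.2 and 594.3 in the wild-type arrays. The TBC1D4-deficient arrays lay close together, wild-type replicate 1 was above and wild-type replicate 4 below all of them. The log2 difference between genotypes was -0.019 (95% interval -0.26 to 0.22). All 3 probe sets with this symbol had wild-type replicate 4 lowest and wild-type replicate 1 highest.

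Hsph1 (HSP105, probe set 10535904), a partner of HSP70 in pulling aggregates apart, read 193.6, 198.2, 195.7 and 176.7 in the TBC1D4-deficient and 269.8, 226.2, 189.9 and 133.4 in the wild-type arrays. Wild-type replicates 1 and 2 were above every TBC1D4-deficient array and wild-type replicate 4 was below every one. The highest wild-type array was 2.02-fold the lowest, against 1.12-fold among the TBC1D4-deficient arrays, and the genotype difference was -0.055 (95% interval -0.45 to 0.34).

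Among the co-chaperones, Dnajb1 had the same arrays at its ends and Dnaja1 did not. Dnajb1 (HSP40, probe set 10573198), which hands clients to HSP70 and is a sensitive readout of HSF1, read 52.77, 58.79, 49.65 and 56.48 in the TBC1D4-deficient and 89.13, 56.37, 44.43 and 39.55 in the wild-type arrays. Wild-type replicate 1 was far above all others and wild-type replicates 3 and 4 were below every TBC1D4-deficient array, a 2.25-fold span in wild-type against 1.18-fold. The genotype difference was -0.0053 (95% interval -0.47 to 0.46). Dnajb4 (probe set 10502823), a close relative, read 102.8, 110.1, 95.46 and 77.62 in the TBC1D4-deficient and 106.6, 103.3, 96.02 and 69.54 in the wild-type arrays. Wild-type replicate 4 was lowest and TBC1D4-deficient replicate 4 next, so here both genotypes had a low array, and the difference was 0.047 (-0.28 to 0.37).

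Dnaja1 (probe set 10521587), a farnesylated HSP40 of the cytosol, read 305.8, 250.3, 246.3 and 211.9 in the TBC1D4-deficient and 270.4, 279.8, 285.8 and 229.3 in the wild-type arrays. Its ends were both TBC1D4-deficient, replicate 1 high and replicate 4 low, and the wild-type arrays lay between them. The difference was -0.078 (-0.33 to 0.17). Another probe set of Dnaja1 gave -0.12, with a range of 0.72, TBC1D4-deficient replicate 1 highest and TBC1D4-deficient replicate 3 lowest. Bag3, the HSP70 nucleotide exchange factor that steers damaged proteins to autophagy, was lowest in wild-type replicate 4 and highest in TBC1D4-deficient replicate 2, with a range of 0.58 and a difference of 0.04 (-0.23 to 0.31).

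Of the small heat shock proteins, which hold unfolded clients without using ATP, Hspb1 (HSP27, probe set 10408928) read 110.9, 125.9, 112.4 and 118.3 in the TBC1D4-deficient and 180.9, 144.8, 103.6 and 79.74 in the wild-type arrays. It had the widest range of the 38 members, 1.18 on the log2 scale, set by wild-type replicate 1 at the top and wild-type replicate 4 at the bottom. The wild-type span was 2.27-fold and the TBC1D4-deficient span 1.14-fold, and the genotype difference was -0.055 (95% interval -0.52 to 0.41). Another probe set gave the same order of wild-type arrays and a difference of -0.051, and the remaining one was dim, at a mean intensity of 4.15. Hspb8, the partner of Bag3, lay little above the median probe set, at 10.68, 14.49, 11.39 and 13.18 in the TBC1D4-deficient and 13.34, 12.89, 11.16 and 10.49 in the wild-type arrays. The lowest array was again wild-type replicate 4 and the highest TBC1D4-deficient replicate 2, and the difference was 0.052 (-0.20 to 0.30).

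The probe sets read for the 3 mitochondrial chaperones had ranges below the median of all probe sets (0.345), as those of Hspa4 and Hspa8 did. Hspe1 (HSP10, probe set 10455588), the lid of the chaperonin, read 369.1, 336.1, 332.2 and 323.6 in the TBC1D4-deficient and 377.7, 343, 349.5 and 351.8 in the wild-type arrays. All wild-type arrays lay above 3 of the 4 TBC1D4-deficient arrays but TBC1D4-deficient replicate 1 came next below wild-type replicate 1, so the groups overlapped. The difference was -0.064 (95% interval -0.21 to 0.079), with a limma unadjusted p of 0.343, the smallest of the heat shock arm. Hspd1 (HSP60), the chaperonin barrel, had a difference of -0.017 (-0.18 to 0.15) and Hspa9 (mortalin), the mitochondrial HSP70, of 0.003 (-0.14 to 0.15). The ranges of these 3 genes were 0.18 to 0.33, and none had wild-type replicate 4 lowest. Another probe set of Hspd1 had a wider range, 0.49, with TBC1D4-deficient replicate 3 lowest.

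**Figure D2:**
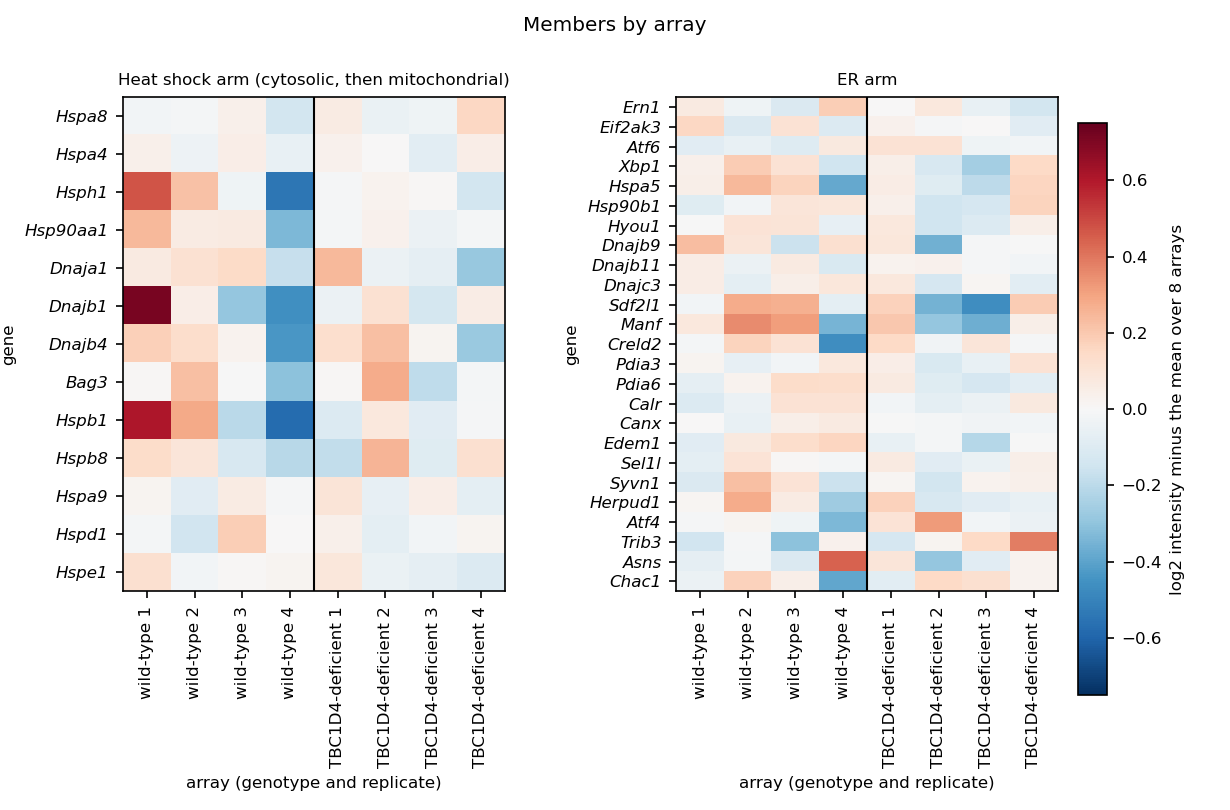
Log2 intensity of each measured member in each array, minus that gene's mean over the 8 arrays (colour, red above and blue below the mean), for the 13 heat shock members (left) and the 25 ER members (right). In the left panel wild-type replicate 1 is red and wild-type replicate 4 blue for Hsph1, Hsp90aa1, Dnajb1 and Hspb1, while the last 3 rows, the mitochondrial members, are pale.

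The same wild-type arrays stood at the ends for many cytosolic heat shock members. Wild-type replicate 4 was the lowest of 8 arrays for 8 of the 13 heat shock members (61.5%), all of them among the 10 that are not mitochondrial, against 13.5% of all probe sets and 9.65% of those above the median level. These 8 were Hspa8, Hsph1, Hsp90aa1, Dnajb1, Dnajb4, Bag3, Hspb1 and Hspb8. Wild-type replicate 1 was the highest for 5 of 13 (38.5%), namely Hsph1, Hsp90aa1, Dnajb1, Hspb1 and Hspe1, against 13.5% of all probe sets and 10.6% of those above the median level. These 2 arrays were picked for counting after the member values were seen. The shares therefore describe the list and were not tested. Averaged over the 13 members, with each gene centred on its mean, the arm stood at 0.20 in wild-type replicate 1, 0.068 in replicate 2, -0.0047 in replicate 3 and -0.25 in replicate 4, and between -0.056 and 0.057 in the TBC1D4-deficient arrays. The median SD of a heat shock member was 0.165 (log2) over the wild-type and 0.0840 over the TBC1D4-deficient arrays. For all probe sets it was 0.111 and 0.109. The 51 further heat shock genes described below went the other way, at 0.0879 over the wild-type and 0.103 over the TBC1D4-deficient arrays. The wild-type range was at least 2 times the TBC1D4-deficient range for 5 of 13 heat shock members and 6 of 25 ER members, 11 of 38 in all (28.9%), against 15.6% of all probe sets. Without TBC1D4-deficient replicate 2 the count was 17 of 38, against 27.2% of all probe sets, and without wild-type replicate 4 it was 8 of 38, against 10.4%. Of the 11 DCT markers, 6 reached this ratio (54.5%), a larger share than in either arm. It was also reached by 11 of the 51 further heat shock genes (21.6%) and 7 of the 52 further ER genes (13.5%) described below. The spread was not compared between genotypes by a test. Among the immediate early genes, 19 of 24 were highest in wild-type replicate 1, 8 of 24 were lowest in wild-type replicate 4, and 16 of 24 passed the same ratio of ranges. The proximal tubule markers were low in wild-type replicate 1 (-0.45) and high in wild-type replicate 4 (0.68), and as high in wild-type replicate 3 (0.70), where the heat shock mean was near 0. The part of either list in the heat shock values was not tested.

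**Figure D3:**
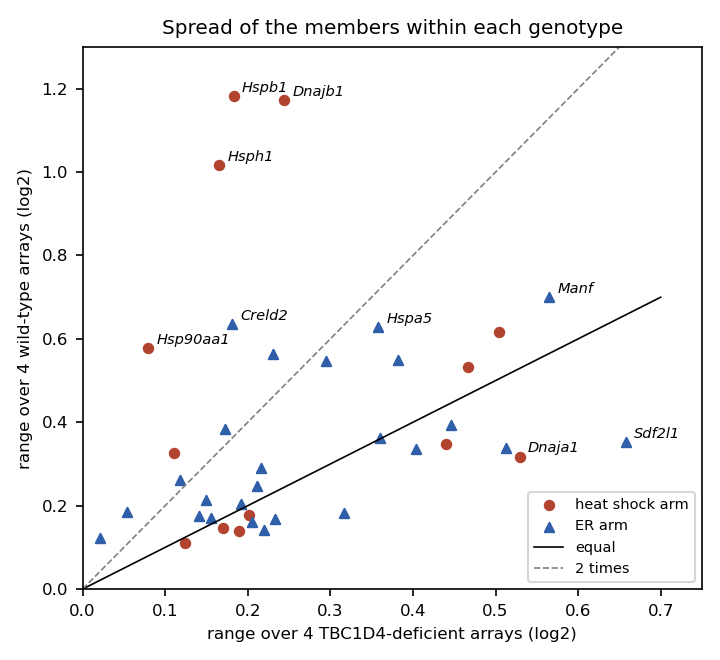
Range of each measured member over the 4 TBC1D4-deficient arrays (x axis, log2) against its range over the 4 wild-type arrays (y axis, log2); circles are heat shock and triangles ER members, the solid line marks equal ranges and the dashed line a wild-type range 2 times as large. Hspb1, Dnajb1 and Hsph1 lie far above the dashed line with wild-type ranges of 1.18, 1.17 and 1.02, and Sdf2l1 and Dnaja1 lie below the solid line.

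The 4 sensor genes of the ER arm had differences of -0.093 to 0.083. Ern1 (IRE1, probe set 10392183) read 51.72, 54.53, 49.73 and 46.93 in the TBC1D4-deficient and 54.22, 50.51, 48.03 and 58.71 in the wild-type arrays. Wild-type replicate 4 was highest and TBC1D4-deficient replicate 4 lowest, the groups overlapped, and the difference was -0.058 (95% interval -0.23 to 0.12). Eif2ak3 (PERK, probe set 10538939) read 82.2, 79.82, 80.53 and 75.72 in the TBC1D4-deficient and 89.22, 74.47, 86.43 and 74.68 in the wild-type arrays, where the wild-type arrays held both ends. Its difference was -0.025 (-0.19 to 0.14). Atf6 (probe set 10359982), the sensor that is cut in the Golgi, read 112.4, 112.5, 102 and 102.9 in the TBC1D4-deficient and 98.14, 100.3, 97.34 and 109.9 in the wild-type arrays. Here 2 TBC1D4-deficient arrays were highest and wild-type replicate 4 came next, and the difference was 0.083 (-0.065 to 0.23).

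Xbp1 (probe set 10374035), the message spliced by IRE1, read 501.1, 448.3, 407.5 and 539.3 in the TBC1D4-deficient and 499.7, 554.5, 524.2 and 439.4 in the wild-type arrays. High values came from TBC1D4-deficient replicate 4 with wild-type replicates 2 and 3, and low ones from wild-type replicate 4 with TBC1D4-deficient replicates 2 and 3. The genotype difference was -0.093 (95% interval -0.32 to 0.13). It was not stated which exons the probe set reads, and spliced and unspliced message are not told apart.

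Of the 5 ER chaperones with the widest ranges, Hspa5, Sdf2l1 and Manf resembled Xbp1 in their low and high arrays, while Creld2 and Dnajb9 did not. Hspa5 (probe set 10471586) read 684.9, 618, 575.1 and 737.2 in the TBC1D4-deficient and 680.1, 780.6, 741.5 and 505 in the wild-type arrays. The same 3 arrays were high and the same 3 low as for Xbp1, with wild-type replicate 4 at the bottom. The difference was -0.037 (95% interval -0.34 to 0.26). Sdf2l1 (probe set 10438098), which holds substrates in the BiP cycle, read 147, 101.9, 94.32 and 148.8 in the TBC1D4-deficient and 128.3, 158.1, 156.4 and 123.9 in the wild-type arrays. TBC1D4-deficient replicates 2 and 3 were below every other array, while TBC1D4-deficient replicates 1 and 4 lay among the wild-type arrays. Its range, 0.75, was the widest of the ER arm, and its difference, -0.23 (95% interval -0.58 to 0.13), was the lowest of the 38 members, with a limma unadjusted p of 0.186. It was -0.11 without TBC1D4-deficient replicate 3, where Dnajb9 was lowest at -0.16, and -0.145 without TBC1D4-deficient replicate 2. Within the arrays whose descriptions are numbered 5 to 8 and 9 to 12 it was -0.41 and -0.043.

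Manf (probe set 10596575), a secreted ER stress protein that binds BiP, read 35.4, 25.2, 23.93 and 31.8 in the TBC1D4-deficient and 32.57, 39.37, 38.28 and 24.22 in the wild-type arrays. Its low arrays were wild-type replicate 4 with TBC1D4-deficient replicates 2 and 3, and its difference was -0.20 (-0.58 to 0.17), or -0.49 and 0.089 within those number sets. Leaving out single arrays took it from -0.35 (without wild-type replicate 4) to -0.115 (without TBC1D4-deficient replicate 3). Creld2 and Herpud1, named after their values were seen, shared the low wild-type replicate 4 and the high wild-type replicate 2, with ranges of 0.63 and 0.55. Over the 9 ER chaperones the centred mean was 0.12 and 0.11 in wild-type replicates 2 and 3 and -0.13 in wild-type replicate 4. It was -0.17 and -0.13 in TBC1D4-deficient replicates 2 and 3, and 0.10 and 0.055 in TBC1D4-deficient replicates 1 and 4. The low and high arrays of this group thus lay in both genotypes and differed from the arrays at the ends of the heat shock arm, except that wild-type replicate 4 was low in both. The immediate early mean was 0.26 in wild-type replicate 2 and -0.45 in wild-type replicate 3, both of which were high for these chaperones. The part of the immediate early genes in the chaperone values was not tested.

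**Figure D4:**
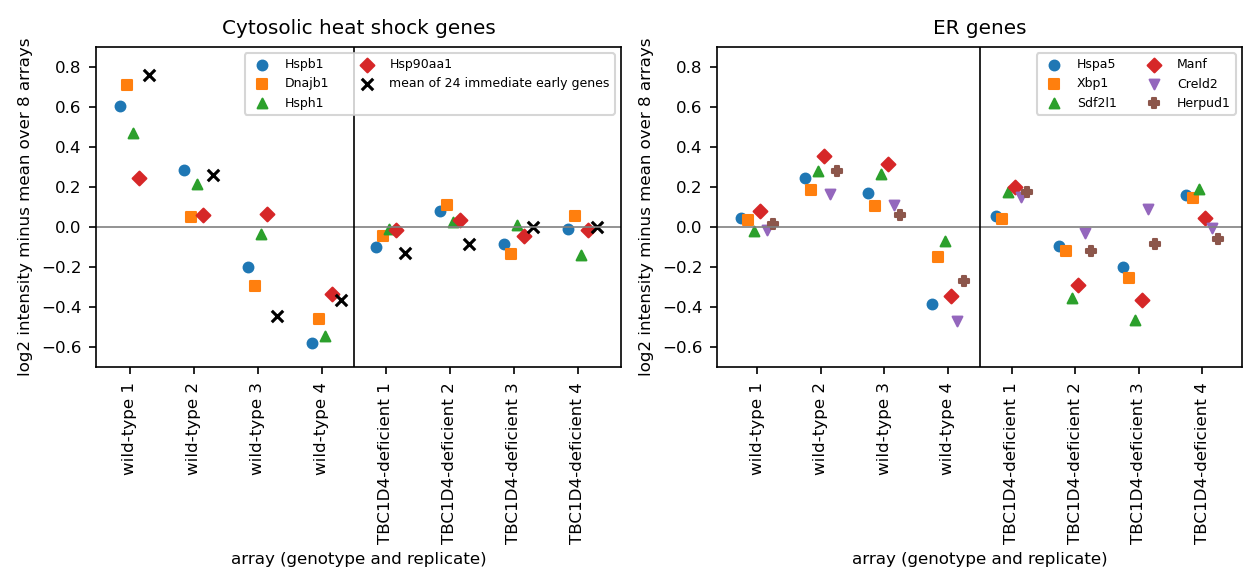
Log2 intensity in each array minus the gene's mean over the 8 arrays (y axis) for 4 cytosolic heat shock genes with the mean of 24 immediate early genes (left) and for 6 ER genes (right); points within an array are set side by side and arrays have no order. The genes were picked after their values were seen, those on the left for having wild-type replicate 1 highest and wild-type replicate 4 lowest. Their TBC1D4-deficient arrays lie near 0, unlike those of Dnaja1 and Dnajb4 (not shown), where TBC1D4-deficient replicate 4 stood at -0.29 and -0.28. On the right wild-type replicate 4 and TBC1D4-deficient replicates 2 and 3 hold most of the low points.

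The remaining ER chaperones had genotype differences from -0.14 (Dnajb9) to 0.10 (Creld2), each with an interval that crossed 0. Hsp90b1 (GRP94) had a difference of -0.035 (-0.22 to 0.15), Hyou1, an HSP110 relative of the ER, of -0.066 (-0.23 to 0.10), and Dnajc3, whose 2 probe sets held identical values, of -0.056 (-0.21 to 0.095). Dnajb9, the co-chaperone that returns IRE1 to rest, was lowest in TBC1D4-deficient replicate 2 and highest in wild-type replicate 1, with a range of 0.59 and a difference of -0.14 (-0.39 to 0.10). Dnajb11 and Creld2 stood at 0.016 (-0.12 to 0.15) and 0.10 (-0.18 to 0.39).

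Folding enzymes and lectin chaperones were the steadiest group of the ER arm, with ranges of 0.12 to 0.26. Pdia6 (probe set 10394735) read 125.2, 112, 109.6 and 112.9 in the TBC1D4-deficient and 114.1, 121.4, 131.4 and 131.1 in the wild-type arrays. Wild-type replicates 3 and 4 were above all TBC1D4-deficient arrays and wild-type replicates 1 and 2 were within them, and the difference was -0.11 (95% interval -0.27 to 0.044) with a limma unadjusted p of 0.138. Calr (calreticulin) stood at -0.032 (-0.19 to 0.12) and Canx (calnexin) at -0.029 (-0.15 to 0.093). Pdia3 (ERp57), the oxidoreductase that works with both lectins, stood at -0.0075 (-0.16 to 0.14). All 4 measured genes of this group lay below 0, as did all 4 of ER-associated degradation, but with each array centred on its median Pdia3 stood at 0.013 and Sel1l at 0.0095.

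In ER-associated degradation, which pulls misfolded proteins back into the cytosol for the proteasome, Edem1 (probe set 10540493), a lectin that picks out misfolded glycoproteins, read 108.5, 111.6, 97.23 and 112.6 in the TBC1D4-deficient and 106.4, 118.6, 123.8 and 126.2 in the wild-type arrays. Wild-type replicates 2, 3 and 4 were above all TBC1D4-deficient arrays and wild-type replicate 1 was among them. The difference was -0.14 (95% interval -0.31 to 0.026) with a limma unadjusted p of 0.0889. Syvn1 (HRD1, probe set 10460706) read 85.85, 77.34, 86.5 and 87.15 in the TBC1D4-deficient and 78.93, 99.17, 91.42 and 75.97 in the wild-type arrays. Wild-type replicates 2 and 3 were above and wild-type replicate 4 below all TBC1D4-deficient arrays, and the difference was -0.03 (-0.23 to 0.17). Sel1l, the partner of HRD1, stood at -0.011 (-0.15 to 0.13) and Herpud1, its ubiquitin-like cofactor, at -0.044 (-0.29 to 0.21).

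Of the 4 measured genes downstream of PERK, 3 lay above 0, also after quantile normalization or centring, and 0 passed. Atf4 (probe set 10425364), the transcription factor whose translation PERK permits, read 35.69, 41.36, 32.7 and 32.23 in the TBC1D4-deficient and 32.96, 33.73, 32.52 and 26.24 in the wild-type arrays. TBC1D4-deficient replicates 1 and 2 were highest and wild-type replicate 4 stood alone at the bottom, with the other arrays overlapping. The difference was 0.18 (95% interval -0.053 to 0.41) with a limma unadjusted p of 0.117, and it was 0.095 without wild-type replicate 4 and 0.10 without TBC1D4-deficient replicate 2. Trib3 (probe set 10488608), a pseudokinase that damps Akt signalling and is an ATF4 target, was dim, with a mean below that of the median probe set, at 6.846, 7.6, 8.298 and 9.767 in the TBC1D4-deficient and 6.774, 7.423, 6.046 and 7.639 in the wild-type arrays. TBC1D4-deficient replicates 3 and 4 were highest and the others overlapped, and the difference was 0.22 (95% interval -0.038 to 0.47), with the smallest limma unadjusted p of the 38 members (0.088). It was 0.12 without TBC1D4-deficient replicate 4, and 0.43 and 0.0039 within the number sets 5 to 8 and 9 to 12.

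Asns (asparagine synthetase, probe set 10543067), a classic amino acid response gene, read 29.12, 22.34, 25.78 and 27.85 in the TBC1D4-deficient and 26.08, 26.97, 25.32 and 37.03 in the wild-type arrays. It was highest in wild-type replicate 4, the array in which Atf4 was lowest, and the difference was -0.12 (-0.41 to 0.16). Chac1 (probe set 10474972), a glutathione-degrading target of the same branch, was also dim, at 6.599, 7.742, 7.592 and 7.121 in the TBC1D4-deficient and 6.779, 7.863, 7.189 and 5.322 in the wild-type arrays. Its ends were both wild-type, replicate 4 low and replicate 2 high, and the difference was 0.11 (-0.14 to 0.36). The targets of this branch therefore did not share 1 order of arrays.

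The sample descriptions open with numbers 5 to 12 of unstated meaning, and each of the sets 5 to 8 and 9 to 12 holds 2 arrays of each genotype. Between these sets 0 of 38 members passed the adjusted threshold (0.00868% of all probe sets did). The smallest adjusted p was 0.350, and 2 of 38 had a limma unadjusted p below 0.05 (5.26%, against 11.6% of all probe sets). These were Ern1, at 5.61 in the lower and 5.77 in the higher set (log2 difference 0.17, unadjusted p = 0.0217), and Syvn1, at 6.51 and 6.31 (log2 difference -0.19, unadjusted p = 0.0207). Whether the genotype difference itself differed between the sets was tested as an interaction, in which 0 of 38 passed (0% of all probe sets) and 3 of 38 had an unadjusted p below 0.05 (7.89%, against 4.51%). In all 3 the difference was lower within 5 to 8 than within 9 to 12. Dnaja1 stood at -0.31 and 0.15, Bag3 at -0.21 and 0.29, and Atf4 at -0.029 and 0.39, and the smallest adjusted p of a member was 0.999. The median of the heat shock arm was -0.079 within 5 to 8 and 0.046 within 9 to 12, and that of the ER arm was -0.032 and -0.00083.

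Other genes of the same pathways, from lists of further chaperones, ER genes and integrated stress response genes, likewise held 0 genes past the threshold by genotype. Of 51 further heat shock genes measured, 31 lay above and 20 below 0, and 0 passed. A limma unadjusted p below 0.05 was found for 1 (1.96%, against 2.9% of all probe sets). That was Bag4, a guardian of death receptors related to Bag3, at 0.17 (0.0012 to 0.34). Fkbp4, a co-chaperone of HSP90 in steroid receptor complexes, stood at 0.13 (-0.013 to 0.27), and the small heat shock genes Hspb9 and Hspb7 at -0.10 and 0.10. The groups did not overlap for 1 of the 51, Hspb9, against 1.85% of all probe sets. Hspb9 was dim, at intensities of 5.682 to 6.76 over the 8 arrays, below the level of the median probe set. Wild-type replicate 4 was lowest for 13 of these 51 (25.5%, against 13.5% of all probe sets). Among them were Dnaja4, Stip1 and Chordc1 (named after their values were seen), which bridge or assist HSP70 and HSP90. Wild-type replicate 1 was highest for 2 of 51 (3.92%, against 13.5% of all probe sets).

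Of 52 further ER genes, 22 lay above and 30 below 0, and 0 passed. A limma unadjusted p below 0.05 was found for 1 (1.92%, against 2.9% of all probe sets). That was Creb3l1, an ER-anchored transcription factor, at -0.18 (-0.35 to -0.009), and it was dim. Ube2j2, a ubiquitin-conjugating enzyme of ER degradation, stood at 0.24 (-0.004 to 0.48), Sec61b, of the translocation channel, at -0.19 (-0.39 to 0.007), and P4hb, the founding disulfide isomerase, at 0.12 (-0.01 to 0.25). The groups did not overlap for 2 of the 52, against 1.85% of all probe sets. Of 30 further genes of the integrated stress response, 13 lay above and 17 below 0, and 0 passed. A limma unadjusted p below 0.05 was found for 2 (6.67%, against 2.9% of all probe sets). These were Mthfd2, a mitochondrial folate enzyme, at 0.21 (0.086 to 0.32), and Psph, the last enzyme of serine synthesis, at 0.17 (0.0025 to 0.33). For these 2 of the 30 the groups did not overlap, against 1.85% of all probe sets. Mthfd2 read 21.88, 22.24, 22.66 and 22.84 in the TBC1D4-deficient and 19.92, 19.01, 19.72 and 19.09 in the wild-type arrays, with every TBC1D4-deficient array above every wild-type array, and its limma adjusted p was 0.9999. Nupr1, a stress-induced nuclear protein, stood at -0.26 (-0.55 to 0.039) and Eif2ak1, the heme-regulated kinase of the same pathway, at -0.13 (-0.29 to 0.041). The medians of these lists were 0.021, -0.011 and -0.018.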

How the data were processed

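RNA from sorted DCT of 4 TBC1D4-deficient and 4 wild-type samples was read on 1 Affymetrix array each, from 100 ng of RNA with a biotin label, per the labels' protocols. The values the authors deposited are linear intensities of 28371 probe sets. They were made with Affymetrix Power Tools, per the submitters' processing notes. Its version and how probes were summarised and arrays normalized were not given in the sources used here. Without a detection call, low intensities cannot be told from background, and folds of dim genes can be understated. All 8 sample columns were matched by their labels, and 0 columns were left unmatched.

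From the deposited intensities log2 was taken with no pseudocount and no further normalization. The genotype fit used limma 3.58.1 under R 4.3.3 (lmFit, eBayes, 2-sided, no covariate) on the 23039 probe sets that carry a gene symbol, and p-values were adjusted over all of them by Benjamini-Hochberg, with 0.05 as the threshold. Number set and its interaction with genotype were fitted in the same way. Probe sets of several symbols (1881) give no gene its name, and 5332 had no symbol. The number of arrays limits the precision. The scripts were tested on simulated data.

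The members and lists were chosen with earlier results of these data known. Values by array are given for Tbc1d4 and the main chaperones, sensors and factors of each arm. They are also given for the 4 members per arm with the smallest genotype p, the smallest number set p or the widest range. Up to 4 genes by genotype p from each of 3 further lists are named with their differences, and of these only Mthfd2 with values by array. The labels do not say whether replicate numbers pair the samples, and the main fit used no pairing. Alternatives covered rows, filters, pseudocount, normalization, eBayes prior, array weights, blocks, covariates and left-out arrays. Those for the spread were added after seeing the data.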

Additional observations from a re-analysis of the deposited data

Results flagged for a closer look

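Of 76 groups examined (38 members in each genotype), 3 held an array far from the other 3, and chance gives about 1 in 20. Atf4 in wild-type replicate 4 stood at 4.71 (log2), below the other wild-type arrays at 5.02 to 5.08, a gap of 0.855 of the group's range. Asns in the same array stood at 5.21, above the others at 4.66 to 4.75, a gap of 0.834 of the range. Syvn1 in TBC1D4-deficient replicate 2 stood at 6.27, below the others at 6.42 to 6.45, a gap of 0.874 of the range.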

How the results depend on the processing

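Under all 26 alternatives to the genotype fit, 0 members passed the threshold, and all 38 differences stayed on that side of it wherever the member was tested (Trib3 and Chac1 left with the filter at the median level). With the replicate block 0 members passed and the arm medians were -0.0053 and -0.035, as without it. Deviations from the group means correlated at 0.40, -0.19, 0.039 and 0.012 between arrays of the same replicate number. These 4 values cannot settle whether the numbers pair the samples. The heat shock median ran from -0.079 within arrays 5 to 8 to 0.059 without wild-type replicate 1, and was -0.069 without wild-type replicate 4, with 3 to 11 of 13 heat shock members below 0 when single arrays were left out. The ER median ran from -0.067 with the identifier range, which was uneven over the genotypes, as a covariate to -0.00083 within 9 to 12. Of 25 ER members, 13 to 20 lay below 0. Neither number set nor interaction gave a member past the threshold under its alternatives. Members with a wild-type range at least 2 times the TBC1D4-deficient range numbered 8 to 17 when single arrays were left out. The lowest count came without wild-type replicate 2 or 4, where 11.8% and 10.4% of all probe sets passed, and the highest without TBC1D4-deficient replicate 2, where 27.2% did. Wild-type replicate 4 was lowest for 8 of 13 heat shock members under each rescaling tried. Dim members are limited by unknown background, and 4 arrays per genotype leave the intervals as wide as 0.47 on either side for Dnajb1 and Hspb1.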
